A study of Mus musculus with 13 samples.

Results

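The 36 genes described here are genes of the thick ascending limb of the loop of Henle and of the distal tubule of the kidney, chosen by symbol, and all 36 were among the 22298 genes of the table. RNA sequencing compared adult CD-1 (ICR) mice, an outbred stock, that had developed from oocytes used after vitrification or fresh. Vitrification is rapid freezing of the egg cell to a glass, here by the Cryotop method, followed by thawing and an incubation of 3 hours. The groups were kidneys of offspring of vitrified oocytes (4 libraries), kidneys of offspring of fresh oocytes (3), livers of offspring of vitrified oocytes (3) and livers of offspring of fresh oocytes (3), all at 8 weeks of age. All 4 groups, the fresh ones included, came through in vitro fertilisation, embryo culture for 24 hours and transfer of 20 cleaved embryos to a pseudopregnant female. The labels give no sex, litter or parent, and the blocks of tissue taken were not divided into cortex and medulla in the labels.

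The thick ascending limb takes sodium, potassium and chloride out of the tubule fluid without water, which dilutes the urine and drives the uptake of calcium and magnesium between its cells. The distal convoluted tubule that follows takes up sodium with chloride, and calcium and magnesium through channels. A kinase cascade headed by the WNK kinases sets the activity of both sodium cotransporters, and potassium channels set the membrane voltage in both segments. In the thick limb they also keep its cotransporter supplied with potassium.

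The promoters of 3 genes are shown because these genes mark the thick limb, the distal convoluted tubule and the secreted products of the group. Each is the 250 bases before the gene's start in RefSeq, 5′ to 3′, on build GRCm38.p6, which is not the build of the expression table. They are Slc12a1 at chr2:125152350-125152599 (plus strand), Slc12a3 at chr8:94328958-94329207 (plus strand) and Klk1 at chr7:44225110-44225359 (plus strand). Capitals mark a match to a searched motif.
Slc12a1: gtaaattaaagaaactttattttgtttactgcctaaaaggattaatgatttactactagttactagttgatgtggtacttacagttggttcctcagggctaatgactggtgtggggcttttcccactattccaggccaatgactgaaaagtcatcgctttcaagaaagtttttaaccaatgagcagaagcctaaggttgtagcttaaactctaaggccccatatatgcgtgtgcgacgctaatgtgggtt
Slc12a3: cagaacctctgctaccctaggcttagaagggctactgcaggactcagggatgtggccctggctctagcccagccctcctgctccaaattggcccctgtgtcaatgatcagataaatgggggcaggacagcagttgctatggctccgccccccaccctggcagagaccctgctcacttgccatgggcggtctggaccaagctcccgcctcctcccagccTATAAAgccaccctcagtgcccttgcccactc
Klk1: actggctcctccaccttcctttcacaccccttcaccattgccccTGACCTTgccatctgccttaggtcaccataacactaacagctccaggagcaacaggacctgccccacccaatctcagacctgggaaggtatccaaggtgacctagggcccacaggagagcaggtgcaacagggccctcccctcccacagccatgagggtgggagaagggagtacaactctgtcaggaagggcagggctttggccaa

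The motifs searched on both strands were GTTAAT (part of the HNF1 motif), AAGGTCA (the ERR motif) and TATAAA (the TATA box), none of which lies within another. RefSeq held 41 promoters of 31 of the 36 genes. GTTAAT was in 7.32% of them (Cldn10, Cldn14 and Kcnj16), against 6.43% of all 32851 promoters of the table. AAGGTCA was in 7.32% (Kcnj16, Klk1 and S100g), against 4.08% of all promoters, and the Klk1 match above is its reverse complement. TATAAA was in 7.32% (Kcnj16, Slc12a3 and Trpv5), against 12.4% of all. The Slc12a1 window held none of the 3. Each share rests on 3 promoters, and a match describes the letters only.

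Estimated counts added up to between 16073251 and 19964914 per library. Levels within a gene are given in CPM, the count scaled to these totals, and levels between genes in the authors' FPKM, which also divide by transcript length. Kidney vitrified 4 and kidney fresh 3 stood apart from the other 5 kidneys, and liver fresh 3 shared with them a sum over the Y-linked genes Ddx3y, Uty, Kdm5d and Eif2s3y near 0 (0.170, 1.25 and 0.778 CPM, against 137 to 205 CPM in the other 10 libraries). Hspa1a, a heat shock gene, was high in both vitrified 3 libraries, with 438 CPM in the kidney and 57.3 CPM in the liver, against 7.31 to 50.8 CPM in the other kidneys and 2.34 to 4.42 CPM in the other livers. Results on the members are given below with and without these libraries where they rest on them.

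The members spanned a wide range of kidney levels. Klk1, tissue kallikrein, a protease secreted by the connecting tubule, was the highest with 1519 ± 782 FPKM (SD, n = 7 kidneys of both origins). Egf, whose precursor the distal convoluted tubule makes and which acts on magnesium uptake, had 433 ± 196 FPKM, the potassium channel subunit Kcnj16 341 ± 87.6 FPKM and the thick limb cotransporter Slc12a1 297 ± 103 FPKM. These 3 neighbours in the order did not differ beyond their spread, and the same held for the vitamin D-dependent calcium-binding protein S100g (267 ± 153 FPKM) and the potassium channel Kcnj15 (217 ± 89.5 FPKM), which follow. Mean kidney FPKM was at least 100 in 8 members, at least 10 in 28 and at least 1 in 33. The 3 below 1 FPKM were Enox1 (0.814), Nos1 (0.199) and Cldn14 (0.127). For Wnk4 the authors' FPKM per CPM differed among kidneys between 0.260 and 0.466, so its place in the order depends on how the authors set its length.

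**Figure D1:**
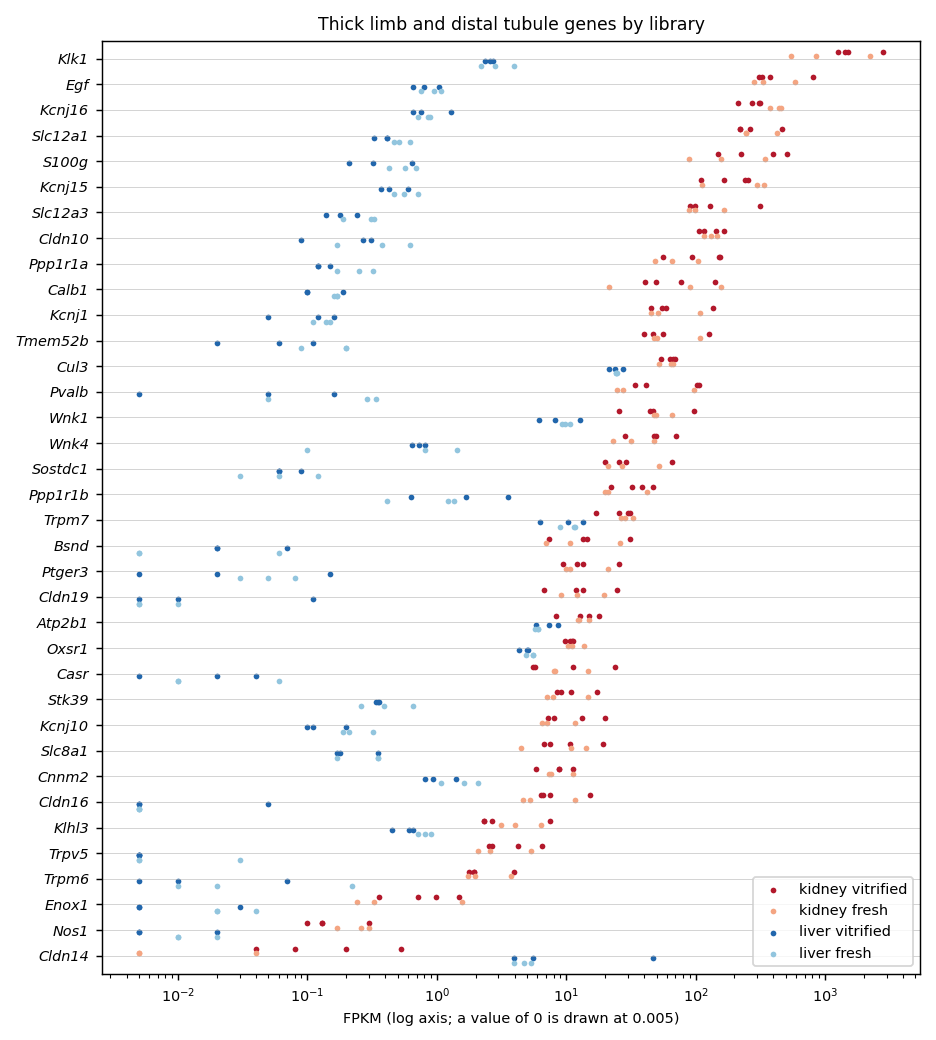
FPKM of the 36 genes in each library on a log axis, with genes in falling order of mean kidney FPKM. Each point is 1 library, red for kidneys and blue for livers, dark for vitrified and pale for fresh origin, and a listed 0 is drawn at 0.005 FPKM. Kidney points lie to the right of liver points except for Atp2b1, where they overlap (kidney vitrified 2 at 8.34 and liver vitrified 3 at 8.58 FPKM), and Cldn14, whose livers lie at 3.94 to 46.95 FPKM.

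Kidney exceeded liver for most of the group. By edgeR's quasi-likelihood test at a Benjamini-Hochberg adjusted p under 0.05, adjusted over all genes tested, 31 of the 36 members were higher in kidney and 1 lower in offspring of vitrified oocytes. Of all 14017 genes tested there, 24.9% were higher and 20.6% lower. In offspring of fresh oocytes 31 were likewise higher and 1 lower, against 26.8% higher and 23.7% lower of 13729 genes. In CPM, kidneys and livers did not overlap for 35 of the 36 members in the vitrified groups, against 67.4% of all genes (the exception was Atp2b1), and for all 36 in the fresh groups, against 78.5% of all genes. The median log2 difference of kidney over liver was 7.64 over the members and -0.01 over all genes in the vitrified groups, and 7.11 over the members and 0.01 over all genes in the fresh groups. The genes are known as kidney genes and were listed for that, and 35 passed the filter on low counts among the kidneys and Cldn14 passed through the liver, so these counts describe the list. In bulk tissue, fewer cells of a type and less RNA per cell cannot be told apart.

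Both salt cotransporters showed this in every library. Slc12a1, the sodium-potassium-chloride cotransporter of the thick limb and the target of loop diuretics, had 1216, 1032, 1019 and 2173 CPM in vitrified kidneys 1 to 4, against 1.92, 1.55 and 1.91 CPM in vitrified livers. It had 1145, 1134 and 1970 CPM in fresh kidneys, against 2.90, 2.38 and 2.18 CPM in fresh livers. Every kidney lay far above every liver, and the highest kidney of each origin was the library near 0 in Y-linked counts. The log2 fold change of kidney over liver was 8.52 ± 0.47 (SE) in the vitrified groups (adjusted p = 7.54e-07) and 8.17 ± 0.35 in the fresh groups (adjusted p = 3.3e-06, both by edgeR). Slc12a3, the thiazide-sensitive sodium-chloride cotransporter of the distal convoluted tubule, had 324, 291, 418 and 1010 CPM in vitrified kidneys, against 0.606, 0.825 and 0.465 CPM in vitrified livers. In fresh kidneys it had 293, 326 and 535 CPM, against 1.04, 1.11 and 0.675 CPM in fresh livers. Its log2 fold changes were 8.62 ± 0.57 and 7.69 ± 0.33 in the vitrified and the fresh groups (edgeR adjusted p = 2.07e-06 and 3.13e-06).

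All 5 potassium and chloride channel genes rose in kidney over liver in both origins. Kcnj16 encodes Kir5.1, the partner of Kir4.1 in the basolateral potassium channel. It had 1147, 777, 1122 and 994 CPM in vitrified kidneys and 1597, 1641 and 1360 CPM in fresh kidneys, and 2.38 to 3.27 CPM in the 6 livers. Its log2 fold changes were 7.57 ± 0.37 in the vitrified groups and 8.06 ± 0.33 in the fresh groups (edgeR adjusted p = 4.73e-07 and 2.8e-06). Kcnj15, another inward rectifier (Kir4.2), had 1128, 845, 1274 and 556 CPM in vitrified kidneys and 1399, 1601 and 555 CPM in fresh kidneys, with kidney vitrified 4 and kidney fresh 3 the lowest of each group. Its log2 fold changes were 7.85 ± 0.51 and 7.80 ± 0.59 in the vitrified and the fresh groups (edgeR adjusted p = 1.94e-06 and 2.82e-05). Kcnj1, the ROMK channel that returns potassium to the tubule fluid, averaged 221 ± 124 CPM in vitrified kidneys and 205 ± 105 CPM in fresh kidneys (SD, n = 4 and 3). Kcnj10, which encodes Kir4.1, averaged 66.0 ± 32.1 and 45.6 ± 15.4 CPM in vitrified and fresh kidneys, and Bsnd, which encodes the channel subunit barttin, 45.8 ± 27.7 and 39.9 ± 27.7 CPM.

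The claudins, which line the junctions between cells, divided by organ. Cldn10, which makes the thick limb junction permeable to sodium, had 201, 178, 140 and 142 CPM in vitrified kidneys and 163, 178 and 150 CPM in fresh kidneys, a narrow range with overlapping groups. Its log2 fold changes of kidney over liver were 8.22 ± 0.47 in the vitrified groups and 7.29 ± 0.33 in the fresh groups (edgeR adjusted p = 8.73e-07 and 3.91e-06). Cldn16 and Cldn19, which together carry calcium and magnesium between thick limb cells, were near absent from livers. Cldn16 summed to 443 counts over the fresh kidneys and 0 over the fresh livers. It was 151-fold higher in kidney with the livers set to 3 counts over the group, and its 95% exact interval ran from 122 upward. In the vitrified groups it summed to 714 counts in kidneys and 1 count in livers, a ratio of 571 (95% exact interval 102 to 22589, for counting error only).

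Cldn14 ran the other way. It is known in the thick limb as the claudin that closes the Cldn16 and Cldn19 pathway when blood calcium is high. It had 0.10, 0.249, 0.667 and 0.0566 CPM in vitrified kidneys, against 7.32, 5.26 and 62.1 CPM in vitrified livers, and 0, 0 and 0.0545 CPM in fresh kidneys, against 5.47, 6.54 and 7.16 CPM in fresh livers. Every liver lay above every kidney. In the vitrified groups the log2 fold change of kidney over liver was -7.56 ± 1.26 (edgeR adjusted p = 0.00172), and it ran between -8.61 (without kidney vitrified 3) and -5.38 (without liver vitrified 3) with 1 library left out, called in each case. In the fresh groups, where the kidneys held 1 count in all and the livers 356, the ratio of kidney to liver was 0.00287 (95% exact interval 7.24e-05 to 0.0161, for counting error only) and the gene was called lower (edgeR adjusted p = 1.05e-05).

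Of the WNK pathway, Wnk1, Wnk4, Stk39 and Klhl3 were higher in kidney, and Oxsr1 and Cul3 were not called. Wnk4, the kinase most tied to the distal convoluted tubule, had 101, 103, 143 and 227 CPM in vitrified kidneys and 88.8, 118 and 161 CPM in fresh kidneys, and 0.415 to 3.28 CPM in livers. Wnk1, which acts beside Wnk4 and is made in many tissues, averaged 436 ± 240 and 439 ± 121 CPM in vitrified and fresh kidneys, against 82.1 ± 23.4 and 81.2 ± 7.21 CPM in vitrified and fresh livers (SD, n = 4, 3, 3 and 3). Stk39 (SPAK), the kinase that WNK kinases switch on and that phosphorylates the cotransporters, averaged 40.4 ± 14.1 and 35.1 ± 15 CPM in vitrified and fresh kidneys. Klhl3, the adaptor that brings WNK kinases to a Cul3 ubiquitin ligase, averaged 26.5 ± 18.1 and 32.1 ± 11.8 CPM in these groups, against 4.11 ± 0.806 and 5.82 ± 0.686 CPM in vitrified and fresh livers. Oxsr1 (OSR1), the broadly made relative of Stk39, had log2 fold changes of 0.17 ± 0.17 in the vitrified groups (edgeR adjusted p = 0.452) and 0.16 ± 0.13 in the fresh groups (adjusted p = 0.357). Cul3, the scaffold of that ligase, had 0.42 ± 0.22 (adjusted p = 0.141) and 0.43 ± 0.18 (adjusted p = 0.0846). In CPM both were nonetheless higher in every kidney than in any liver: Oxsr1 at 45.8 to 63.3 CPM in kidneys and 20.2 to 25.8 CPM in livers, Cul3 at 151 to 191 CPM and 61.8 to 74.9 CPM.

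That gap between CPM and the test comes from scaling. The main fit used TMM factors, which centre the median of all genes near 0. With library totals alone the median of all genes moved to 0.99 in the vitrified and 0.96 in the fresh groups, and the share of all calls that were higher in kidney moved to 87.4% and 87.1%, against 54.8% and 53.1% with TMM. Under library totals Oxsr1 (1.16 and 1.12), Cul3 (1.40 and 1.37), the ion channel Trpm7 (1.36 and 1.45) and the calcium pump Atp2b1 (0.89 and 1.22) were called higher in the vitrified and the fresh groups. Of the 36 members, Atp2b1 in the vitrified groups was the only member whose direction turned with the scaling (TMM, DESeq2's size factors, library totals, FPKM).

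Calcium and magnesium genes gave 7 of 9 higher in kidney in both origins. S100g had 108, 190, 71.2 and 244 CPM in vitrified kidneys and 42.5, 75.7 and 166 CPM in fresh kidneys, and at most 0.333 CPM in a liver. Calb1, the calbindin that ferries calcium across distal tubule cells, had 172, 328, 209 and 596 CPM in vitrified kidneys and 90.3, 380 and 670 CPM in fresh kidneys, with a 7.42-fold range over the 7. These are among the widest spreads in the group, and vitrified and fresh kidneys overlapped in both genes. Their log2 fold changes of kidney over liver were 8.63 ± 0.59 and 7.42 ± 0.58 for S100g (edgeR adjusted p = 2.75e-06 and 4.18e-05), and 8.18 ± 0.58 and 8.06 ± 0.79 for Calb1 (adjusted p = 2.96e-06 and 0.000149), in the vitrified and the fresh groups. Trpv5, the calcium entry channel, had 8.41, 8.27, 13.9 and 21.1 CPM in vitrified kidneys and 0 counts in vitrified livers. It was 252-fold higher in kidney with those livers set to 3 counts, and its 95% exact interval ran from 204 upward. In the fresh groups Trpv5 had 592 counts in kidneys and 2 in livers, a ratio of 302 (95% exact interval 83.2 to 2499.5). The magnesium channel Trpm6, the parvalbumin gene Pvalb, the sodium-calcium exchanger Slc8a1 and Cnnm2, which acts in magnesium export, were also higher in kidney in both origins. Trpm7, a relative of Trpm6 made in most cells, had 0.38 ± 0.26 in the vitrified groups (edgeR adjusted p = 0.263) and 0.51 ± 0.21 in the fresh groups (adjusted p = 0.0773). With the replicate number as a block the fresh value was 0.50 (adjusted p = 0.0409), and adjusted p ran between 0.000263 and 0.22 over its 16 alternatives. Atp2b1, which pumps calcium out across the plasma membrane, had -0.11 ± 0.30 (adjusted p = 0.788) and 0.26 ± 0.13 (adjusted p = 0.137).

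All 5 genes of receptors and signalling and all 5 secreted or other products were higher in kidney in both origins. Ppp1r1a, an inhibitor of protein phosphatase 1, had 123, 203, 73.5 and 199.7 CPM in vitrified kidneys and 85.9, 63.1 and 137 CPM in fresh kidneys, and 0.155 to 0.415 CPM in livers. Its log2 fold changes were 8.74 ± 0.51 in the vitrified groups and 7.2 ± 0.36 in the fresh groups (edgeR adjusted p = 1.1e-06 and 5.21e-06). Casr, the calcium-sensing receptor, averaged 51.0 ± 37.4 and 44.8 ± 16.8 CPM in vitrified and fresh kidneys, and Ptger3, a receptor for prostaglandin E2, 34.1 ± 16 and 31.6 ± 14.3 CPM. Ppp1r1b (DARPP-32), another phosphatase inhibitor, averaged 66.6 ± 19.0 and 54.4 ± 23.6 CPM. Nos1, the nitric oxide synthase of the macula densa, averaged only 1.42 ± 0.943 and 1.70 ± 0.275 CPM.

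Among the secreted products, Egf had 1770, 1164, 1343 and 3617 CPM in vitrified kidneys and 1340, 1532 and 2596 CPM in fresh kidneys, against 2.84 to 4.32 CPM in the 6 livers. The log2 fold changes of Egf were 8.11 ± 0.58 in the vitrified and 7.92 ± 0.37 in the fresh groups (edgeR adjusted p = 3.18e-06 and 4.5e-06). Klk1 had 1207, 1425, 1350 and 2684 CPM in vitrified kidneys and 517, 806 and 2113 CPM in fresh kidneys, with overlapping groups. Those of Klk1 were 8.41 ± 0.47 and 7.70 ± 0.61 in the vitrified and the fresh groups (edgeR adjusted p = 8.24e-07 and 3.67e-05). Its level is uncertain because 24.0% of its 50-base stretches also occur in other genes, 15.9% in Klk1b5 alone, and it was the only member with estimated counts that were not whole. Sostdc1, a secreted antagonist of BMP and Wnt signals, averaged 62.4 ± 37.2 and 59.6 ± 29.9 CPM in vitrified and fresh kidneys, Tmem52b 177 ± 106 and 178 ± 91.7 CPM, and Enox1, a cell-surface oxidase, 2.71 ± 1.44 and 2.2 ± 2.3 CPM. Slc8a1 overlaps the antisense gene Gm11096 of the table, and whether the counting used strand is not known here.

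Liver levels of the most kidney-restricted members were small shares of their kidney levels. In 20 members the mean liver CPM was under 1% of the mean kidney CPM, a limit set after the values were seen, and it lay between 0.0942% and 0.346% (median 0.181%). Some markers of other nephron cells lay in or near this range and others far above it. Liver levels were under 1% of kidney for 10 of 12 proximal tubule markers (0.178% to 0.291%, for example 0.213% for Kap), for 6 of 9 principal cell markers, 4 of 8 intercalated cell markers and 2 of 5 podocyte markers. The highest share in each of these lists was 27.4%, 24.1%, 10.03% and 7.6%, that of the proximal tubule list being Slc27a2. Of the 29 other thick limb and distal tubule genes 14 were under 1%, Umod at 0.182%. Part of the shares of the 20 members rest on few liver counts, such as Cldn16 with 1 count over the vitrified livers and 0 over the fresh livers. Whether kidney reads reached the liver libraries was not tested. Another 8 members (Kcnj10, Wnk4, Stk39, Trpm6, Slc8a1, Nos1, Ppp1r1b and Enox1) had liver levels between 1% and 10% of kidney, and 8 (Cldn14, Wnk1, Oxsr1, Klhl3, Cul3, Trpm7, Atp2b1 and Cnnm2) at 10% or more.

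Before oocyte origin is compared, the split within the kidneys needs its values. Kidney vitrified 4 and kidney fresh 3 were the 2 highest of the 7 kidneys in CPM for 23 of the 35 members that passed the filter, against 32.9% of all 14018 genes. Ranked on TMM-scaled CPM, an alternative added after seeing the data, they were the 2 highest for 20 of 35, against 16.3% of all genes. Among the 23, the mean of these 2 libraries was 1.18 to 2.91 times the mean of the other 5 (median 2.17). Slc12a3, for example, stood at 1010 CPM in kidney vitrified 4 and at 535 in kidney fresh 3, against 291 to 418 CPM in the other 5 kidneys. Both cotransporters, 5 of 6 WNK pathway members and all 5 secreted or other members were among the 23.

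Kcnj15 and Cul3 were the 2 members for which these libraries were the 2 lowest, against 8.4% of all genes (on TMM-scaled CPM it was 3 members, against 19% of all genes). In CPM 10 members were neither (Kcnj10, Kcnj16, Cldn10, Trpm7, S100g, Pvalb, Atp2b1, Cnnm2, Ppp1r1a and Ppp1r1b). Other lists moved with the split. These libraries were the 2 highest for 20 of 28 other thick limb and distal tubule genes, 5 of 5 podocyte, 5 of 6 endothelial, 6 of 9 principal cell, 5 of 8 intercalated cell and 3 of 6 macrophage markers, for 2 of 12 proximal tubule markers (and the 2 lowest for 5 of the 12), and for 0 of 8 hepatocyte and 0 of 8 ribosomal protein genes. The 12 proximal tubule markers summed to 16861 and 23611 CPM in these libraries (vitrified 4, then fresh 3), against 47613 to 50262 CPM in the other 5, with Kap at 4849 and 9706 CPM, against 26270 to 31456 CPM. Kap was the largest term of each sum, and the list was not uniform. Acsm2 was at 1383 and 1240.0 CPM in these libraries, against 5815 to 7608 CPM, Lrp2 at 2349 and 3466 CPM, against 1728 to 3050.2 CPM, and Slc22a8 at 639.5 and 599 CPM, against 199 to 419 CPM. No proximal tubule marker was at 0, but Slc7a13 was at 3.74 and 6.64 CPM in these libraries, against 658 to 771 CPM in the other 5. The part of these marker levels, and of what sets the Y-linked counts, in the members' levels was not tested.

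**Figure D2:**
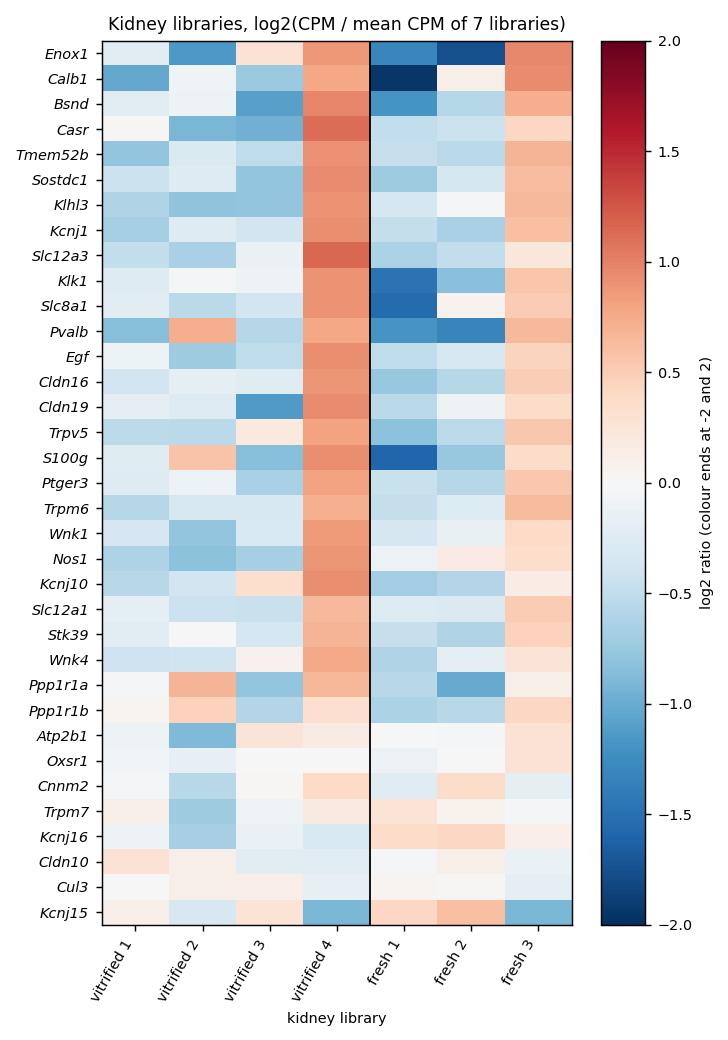
Log2 ratio of each library's CPM to the mean of the 7 kidneys for the 35 tested members, vitrified libraries left and fresh libraries right of the line, genes ordered by the mean of vitrified 4 and fresh 3 over the other 5. Red is above and blue below the mean, and the columns vitrified 4 and fresh 3 are red for most genes and blue for Kcnj15 and Cul3.

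**Figure D3:**
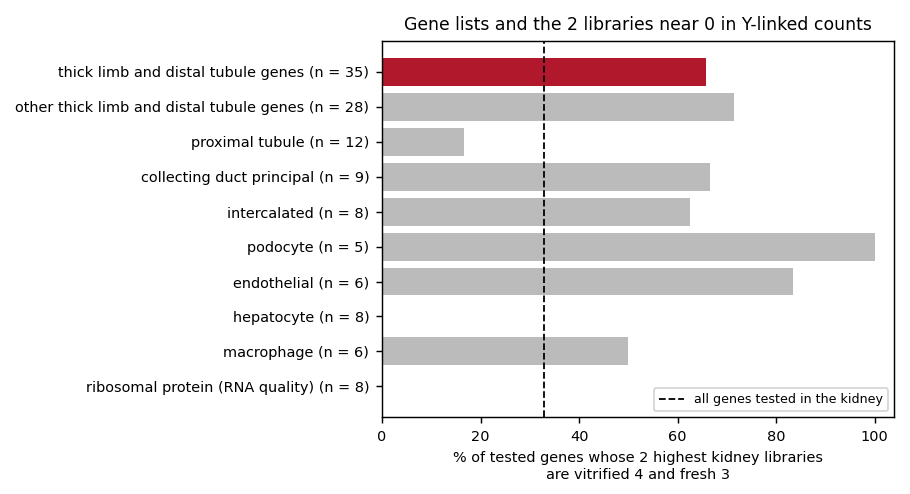
Percent of tested genes of each list whose 2 highest kidney libraries were vitrified 4 and fresh 3, with n the number tested and the dashed line at the 32.9% of all genes. The red bar is the 35 members at 65.7%, and the proximal tubule, hepatocyte and ribosomal protein lists lie below the line.

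In the kidney, oocyte origin gave no call among the members. By edgeR's quasi-likelihood test 0 of 35 tested members passed, as did 0% of all 14018 genes. DESeq2 and limma also called 0 members, and 1 member, Kcnj16, had an unadjusted p under 0.05 by edgeR, against 2.05% of all genes. Of the 35, 22 had a log2 fold change of vitrified over fresh above 0, against 53.7% of all genes, and the median was 0.10, against 0.02 over all genes. That balance rested on single libraries: without vitrified 4 it was 13 above 0 (median -0.14), without fresh 3 it was 25 (median 0.39), without fresh 1 it was 16 (median -0.04), and without both vitrified 4 and fresh 3 it was 21 (median 0.06). Calb1, Casr and Cldn19 turned sign under another scaling. Cldn14 did not pass the filter in kidney.

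Kcnj16 was the member with the smallest p. Its 1147, 777, 1122 and 994 CPM in vitrified kidneys all lay below the 1597, 1641 and 1360 CPM in fresh kidneys. It was the only member of the 35 whose groups did not overlap, a share near the 2.87% of all genes (1.69% in its direction). That count therefore does not set the members apart from other genes. Its log2 fold change was -0.60 ± 0.25 (SE, edgeR unadjusted p = 0.0393, adjusted p = 0.999). Without kidney vitrified 4 and kidney fresh 3 it was -0.67 (adjusted p = 0.722), and it ran between -0.74 and -0.51 over its 18 alternatives, with adjusted p between 0.722 and 0.999996. Between kidney vitrified 4 and kidney fresh 3 the ratio of vitrified to fresh was 0.731, and between the means of vitrified 1 to 3 and fresh 1 and 2 it was 0.627. As the groups did not overlap, both ratios had to favour fresh, so they are no separate evidence on direction.

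The other members with the smallest p in each direction had overlapping groups. Kcnj10, which encodes a partner of Kcnj16, had 39.2, 43.9, 72.1 and 109 CPM in vitrified kidneys and 35.3, 38.2 and 63.2 CPM in fresh kidneys. Its log2 fold change was 0.55 ± 0.32, opposite in sign to those of Kcnj16 and Kcnj15. Ppp1r1a had 0.68 ± 0.36, S100g 0.74 ± 0.48 and Klk1 0.59 ± 0.43 on the log2 scale. In these 3 genes the lowest of the 7 kidneys was a fresh library (2 of the 4 vitrified kidneys lay above every fresh kidney for Ppp1r1a and S100g, and 1 for Klk1). Below 0 were Trpm7 (-0.20 ± 0.23), Klhl3 (-0.30 ± 0.37) and Kcnj15 (-0.31 ± 0.46). With 1 library left out, Trpm7 ran between -0.34 and -0.06, Klhl3 between -0.77 and -0.08 and Kcnj15 between -0.69 and -0.02. Likewise Kcnj10 ran between 0.31 and 0.75, Ppp1r1a between 0.43 and 0.93, S100g between 0.41 and 1.28 and Klk1 between 0.27 and 1.24. Each of these 7 had an edgeR adjusted p of 0.999. Both cotransporters were among the members whose groups overlapped, with -0.05 ± 0.28 for Slc12a1 and 0.39 ± 0.39 for Slc12a3.

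**Figure D4:**
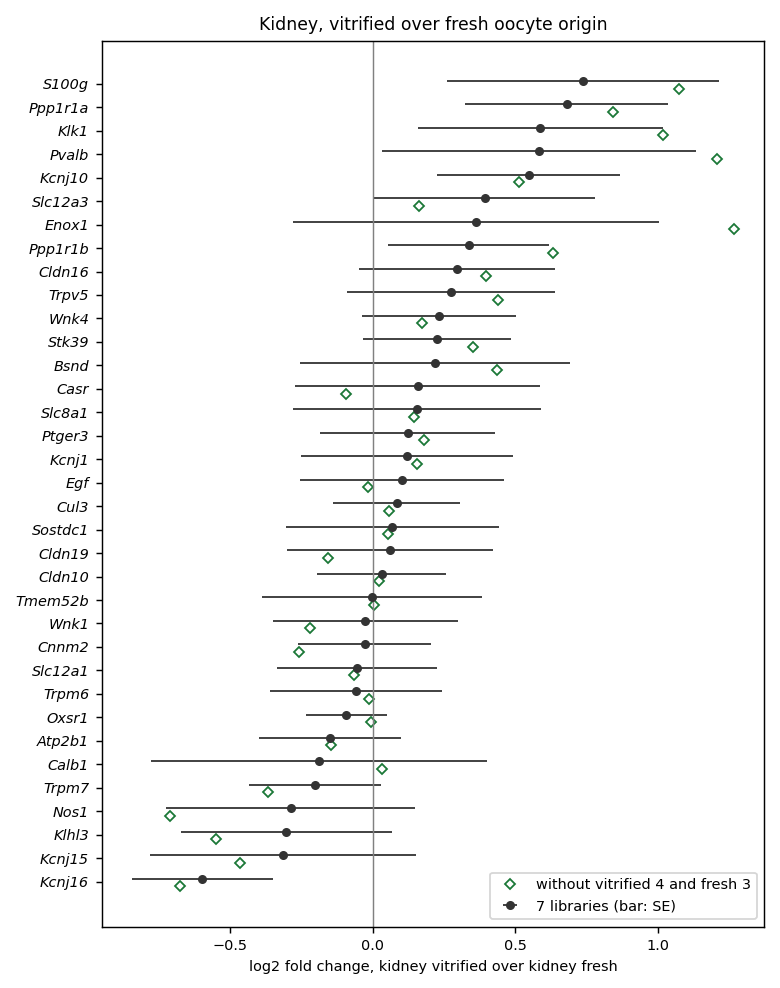
Log2 fold change of kidney vitrified over kidney fresh for the 35 tested members, filled points with SE bars from 7 libraries and open diamonds from 5 libraries without vitrified 4 and fresh 3. Kcnj16 lies lowest at -0.60 and S100g highest at 0.74, and the diamonds of S100g and Klk1 lie further from 0 than their points.

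Within the pair of libraries near 0 in Y-linked counts, vitrified 4 exceeded fresh 3 in CPM for 28 of 35 members (median ratio 1.20), against 54.7% of all genes. Among the other 5 kidneys the vitrified mean exceeded the fresh mean for 20 (median ratio 1.03), against 50.9% of all genes. Vitrified was above fresh in both settings for 16 members and below in both for 3, which were Kcnj16, Oxsr1 and Atp2b1. For Kcnj16 this followed from its groups not overlapping. The shares of all genes above or below in both settings were not worked out, so these joint counts have no background beside them. With 1 library on each side, the comparison within the pair has no replicate check.

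In the liver, 20 of the 36 members passed the filter, and 7 of these (Slc12a1, Slc12a3, Kcnj15, Kcnj16, Calb1, Egf and Klk1) were among those with liver levels under 1% of kidney. EdgeR called 0 of the 20 for oocyte origin, as it did 0% of all 12335 genes, and DESeq2 and limma called 0 members. At an unadjusted p under 0.05 edgeR gave 0 of the 20, against 3.16% of all genes. Of the 20, 5 lay above 0 and 15 below, where 51.2% of all genes lay above 0, with a median log2 fold change of -0.20, against 0.01 over all genes, and Cul3, Kcnj16, Wnk1 and Wnk4 turned sign under another scaling. In the same fit 1 of 12 proximal tubule markers lay above 0 (median -0.33), with Kap at 38.0, 44.1 and 37.6 CPM in vitrified livers, against 53.5, 52.7 and 54.0 CPM in fresh livers, and all 8 ribosomal protein genes lay above 0 (median 0.32). Their part in the members' values was not tested. The groups did not overlap for 3 members, all lower in vitrified livers, against 7.58% of all genes and 3.4% in that direction. Klhl3 was such a member, with 4.39, 4.74 and 3.21 CPM in vitrified livers, against 6.51, 5.82 and 5.14 CPM in fresh livers, and a log2 fold change of -0.48 ± 0.26 (edgeR adjusted p = 0.990). The others were Slc12a1 and Kcnj15, both at 1.55 to 3.22 CPM. Kcnj10 had -0.77 ± 0.43 and Ppp1r1b 0.82 ± 0.59 (adjusted p = 0.990 for both), with overlapping groups.

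Cldn14 had the highest positive value in the liver, 2.13 ± 1.11 on the log2 scale (edgeR adjusted p = 0.990). It had 7.32, 5.26 and 62.1 CPM in vitrified livers and 5.47, 6.54 and 7.16 CPM in fresh livers. A single library, vitrified 3, stood far above the other 5, which overlapped between origins. That library was also the highest liver in Hspa1a and in Egr1, an immediate early gene, at 57.3 and 198 CPM, against at most 4.42 and 16.1 CPM in the other livers. The kidney library of the same number and origin had the highest kidney level of Cldn14, 0.667 CPM, and of Hspa1a. Without liver vitrified 3 the Cldn14 difference was -0.06, and the part of those genes in its level was not tested.

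**Figure D5:**
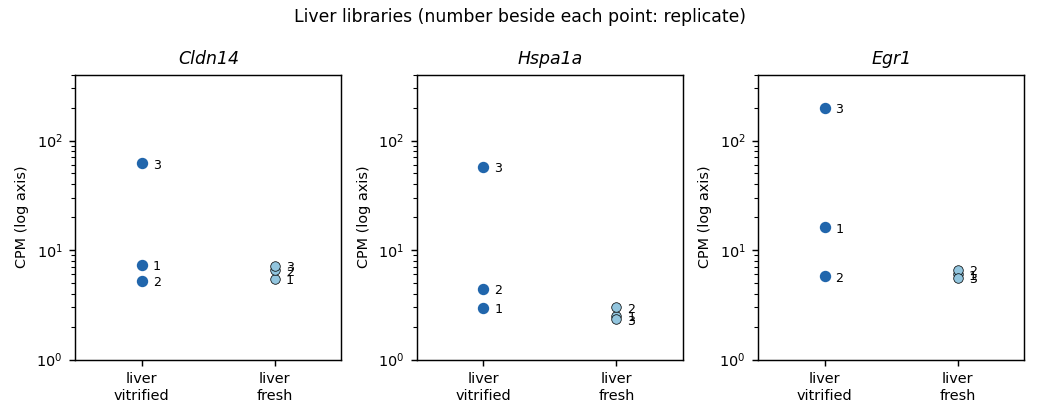
CPM of Cldn14, Hspa1a and Egr1 in each liver library on a log axis shared by the panels, vitrified livers left and fresh livers right, with the replicate number beside each point. Vitrified 3 is the highest point in all 3 panels, at 62.1, 57.3 and 198 CPM.

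The effect of origin was not shown to differ between kidney and liver for any member. The interaction between organ and origin, fitted with edgeR to the 13 libraries, called 0 of 36 members and 0% of 14441 genes, DESeq2 and limma called 0, and 2 members had an unadjusted p under 0.05, against 1.9% of all genes. These were Kcnj10 (1.34 ± 0.51) and Ppp1r1a (1.57 ± 0.69), where a positive value means that vitrified over fresh was higher in kidney than in liver on the log2 scale. Kcnj10 was at 0.556, 1.08 and 0.621 CPM in vitrified livers and 1.15, 1.05 and 1.71 CPM in fresh livers, so the liver side of the contrast rests on few counts. Tmem52b had 1.61 ± 0.79 and Cldn10 0.97 ± 0.56, and the edgeR adjusted p was 0.9999 for all 4. Ppp1r1a, Tmem52b and Cldn10 did not pass the filter in the liver comparison, with 3 to 8, 1 to 8 and 2 to 15 counts per liver library. Only 20 of the 36 members passed that filter, so for the others too the liver side rests on few counts. Of the 36 members 27 were above 0, against 54.4% of all genes, with a median of 0.44, which was 0.15 without kidney vitrified 4 and 0.66 without kidney fresh 3, and 11 of the 36 turned sign under another scaling.

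Another 29 genes of these segments were listed beside the members. They hold, among others, Umod (uromodulin, the major urinary protein of the thick limb) and sodium pump subunits. In kidney over liver 23 of 28 tested were higher and 0 lower in the vitrified groups, and 24 higher and 0 lower in the fresh groups. For origin in the kidney edgeR called 0 of 28, with 17 above 0 and a median of 0.08, and in the liver 0 of 17, with 8 above 0 and a median of -0.11. For the difference between organs 15 of 28 were above 0 with a median of 0.04. Umod had 3558, 3623, 3137 and 5964 CPM in vitrified kidneys, against 2846, 2516 and 5069 CPM in fresh kidneys, and here too kidney vitrified 4 and kidney fresh 3 were the highest of their groups.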

How the data were processed

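Total RNA from blocks of liver and kidney was sequenced as 13 libraries. For 22298 genes the authors deposited estimated counts and FPKM values per library. The genome build GRCm39 and the tools HISAT2 2.4, StringTie 1.3.1, Bowtie2 2.2.8 and DESeq2 are listed, without role or order, per the submitters' processing notes. How reads were counted, and whether by strand, is not given in the sources used here. Between 7.63% and 9.14% of the estimated counts per library were not whole, which were rounded before each count model.

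Groups came from the tissue and treatment labels, which call the libraries biological replicates, and no source says how they were drawn, so a p-value covers only the spread among these libraries. Each comparison was fitted on the whole table with edgeR 4.0.16 in R 4.3.3 (TMM, the default filter on low counts, robust quasi-likelihood test, no block, Benjamini-Hochberg over all genes tested, called at an adjusted p under 0.05). Fold changes are log2 with a standard error (SE) from the test statistic. Intervals of count ratios are exact and, like the floor of 3 counts over a group, cover counting error only. The steps were tested on simulated data. Alternatives were DESeq2 1.42.0 and its size factors, library totals, other filters, limma 3.58.1 on log2(FPKM + 1) and log2(FPKM + 0.1), a newer quasi-likelihood method, a replicate block, and libraries left out.

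The members and the lists were chosen with earlier results of these data known. Fold changes with tests are given for members that pass, and for the 4 (kidney), 2 (liver) with the smallest p per direction, the 4 of the organ difference with the smallest p, the 10 highest in kidney FPKM, and each member not called or lower in an organ comparison. Both cotransporters, the 3 members without overlap in liver and the list totals are named beyond that rule, and some genes of the lists are not reported here.

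Libraries of equal number in kidney and liver were checked for pairing by the correlation of their deviations from group means. It was 0.192 to 0.195 in the 3 fresh pairs, above the 0.1 required, and 0.0482 to 0.345 in the vitrified pairs, not all above it. Libraries of equal number but different origin, which cannot share a mouse, reached 0.408 within an organ. Across organs, the like comparison, they lay between -0.0824 and 0.0459. As not all vitrified pairs passed and the labels do not state pairing, the check does not establish it. The main fits did not use pairing, and the replicate block is among the alternatives. No libraries were duplicates (chi-square per gene at least 20.0). All 36 members were found by identifier in the mouse GENCODE release M21, which was used for shared sequence and overlaps only.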

Additional observations from a re-analysis of the deposited data

Results flagged for a closer look

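In 7 members, kidney vitrified 4 lay far above the other 3 vitrified kidneys: its gap to the next library, as a share of the group's range, exceeded Dixon's 95% critical value for 4 samples. The share was 0.839 for Kcnj1 (405 CPM), 0.898 for Cldn16 (16.8 CPM), 0.933 for Klhl3 (53.6 CPM), 0.863 for Trpm6 (25.7 CPM), 0.865 for Slc8a1 (311 CPM), 0.933 for Nos1 (2.83 CPM) and 0.853 for Klk1 (2684 CPM). Chance alone puts about 1 in 20 groups past this value, and the 7 genes share 1 high library and so are not independent. The share of all genes in which kidney vitrified 4 passed Dixon's value was not worked out. The count of 7 therefore has no background beside it and does not set the members apart from other genes. Kidney vitrified 4 and kidney fresh 3 were the 2 highest of the 7 kidneys in CPM for 32.9% of all 14018 genes. In all 7 genes kidney fresh 3, the other kidney near 0 in Y-linked counts, was the second highest of the 7 kidneys. Without both libraries Klhl3 had a log2 fold change of vitrified over fresh of -0.55 and Klk1 of 1.02, with an edgeR adjusted p of 0.722 for each, and between 0.722 and 0.999996 over the alternatives of each.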

How the results depend on the processing

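Of 186 alternative values for counts of called members, 0 differed from the reported count by more than 1.5 times. With 31 of 36 members called higher in kidney over liver, a rise past that limit was not possible. Members called higher ran between 30 and 35 over the settings in each organ comparison, and each reported count of 0 stayed at 0. Of 818 alternative values for single named members, 780 kept direction and side of the threshold, 30 gained a call, 0 lost one and 8 turned direction. With the replicate number as a block, Kcnj15 in kidney origin was 0.050, 15 of 35 members lay above 0 in kidney (median -0.05), and 32 members were higher in kidney over liver in the fresh groups through Trpm7, while the other counts of calls were unchanged. The replicate numbers of vitrified and fresh libraries share a number only, with correlations of -0.455 to 0.408 over 6 pairs. Cldn14 in liver origin turned to -0.056 with the vitrified 3 libraries left out and ran between -0.056 and 2.62 with 1 library left out. Atp2b1 in kidney over liver, vitrified groups, was 0.89 with library totals, 0.78 with limma on log2(FPKM + 1), 0.85 with limma on log2(FPKM + 0.1), and between -0.32 and 0.11 with 1 library left out. The cause was not tested for these. Members above 0 in kidney origin ran between 13 and 26 over all alternatives. Over 14018 genes in kidney and 12335 in liver, DESeq2 called 10 genes in each, none a member. Each group holds 3 or 4 libraries, and the size of difference that the members' spread would let a test call was not worked out.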
